A study of Mus musculus with 24 samples.

Results

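The 10 genes described here carry or answer the RSPO1 and WNT4 signal that acts through beta-catenin in the supporting cells of the mouse fetal gonad. They are a list of symbols drawn up with earlier results of these data known, with no rule on their values: Rspo1 and Wnt4 encode the ligands, Lgr4 and Lgr5 the R-spondin receptors, Znrf3 and Rnf43 the ubiquitin ligases that remove Wnt receptors, Ctnnb1 encodes beta-catenin, and Axin2, Lef1 and Nkd1 are genes that the pathway commonly switches on. All 10 of them were found among the 32040 gene symbols of the deposited tables, and all 10 were among the 16190 genes that passed the filter on low counts. RNA was measured in 24 libraries of sorted cells, 3 for each of 8 groups. The XX groups were pre-granulosa cells, sorted from fetal gonads of females of the Tg(Enh8-mCherry) line at E11.5, E12.5, E13.5 or E15.5 (E for embryonic day). The XY groups were Sertoli cells from males of the SOX9-IRES-GFP line at the same 4 stages. Each library was made from about 40000 sorted cells, per the labels. Sex, mouse line and fluorophore changed together, so their parts in an XX minus XY difference cannot be told apart. The labels do not say which cells the Enh8 transgene marks, nor whether replicates came from separate litters, so p-values measure the spread between these libraries, which may be technical.

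R-spondins bind LGR receptors and hold ZNRF3 and RNF43 away from the Wnt receptors, which keeps more Wnt receptor at the cell surface. Beta-catenin then escapes destruction, enters the nucleus and works with TCF and LEF factors on target genes, several of which encode inhibitors that feed back on the pathway. In the fetal ovary RSPO1, WNT4 and beta-catenin are required for the pre-granulosa fate, and in the fetal testis the pathway is opposed by SOX9 and FGF9.

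Total counts per library lay between 11275251 and 37256881, and the 3 XY E11.5 libraries were the only ones above 30696512. A count of 3, taken as the floor of detection, was worth between 0.0774 and 0.26 counts-per-million (CPM), the level unit used below unless another is named. It is scaled by TMM, edgeR's correction for library composition. The sorted types were checked against marker lists. The sum of 5 pre-granulosa markers was between 229 and 1172 CPM in XX libraries, and it fell from a range of 47.3 to 57.8 CPM in XY E11.5 to one of 1.96 to 3.99 CPM in XY E15.5. The sum of 7 Sertoli markers was between 1527 and 2738 CPM in XY E11.5, between 8647 and 9922 CPM at later XY stages, and at most 326 CPM in XX. Among these, Foxl2 was at 0 in all 3 XY E13.5 libraries, and Amh was at 26.3 ± 12.0 CPM (SD, n = 3) in XY E11.5 against 3841 ± 16.4 CPM in XY E12.5. One XX E11.5 library stood apart: replicate 2 had a pre-granulosa sum of 803 CPM, against 303 and 229 CPM in replicates 1 and 3. Results whose call changes, or that move most, when it is left out are given with and without it. For 1 XX E13.5 library, replicate 1, a label field gives E12.5 while the title and description give E13.5, and it was kept at E13.5.

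The start regions of 3 genes are shown for description only, and no RNA result rests on these sequences. The 3 are the ligand gene Rspo1, the feedback gene Axin2, and Lef1, which had the largest XX to XY contrasts of the 10 genes at E12.5 and E13.5. The sequences come from RefSeq (GRCm38.p6, the same assembly as the mm10 build named in the submitters' processing notes), and each is the 250 bases before an annotated start on the plus strand. That of Rspo1 lies at chr4:124986180-124986429, just before the gene's span of chr4:124986430-125009099 in GENCODE M21. That of Axin2 lies at chr11:108920099-108920348, just before chr11:108920349-108950783. The Lef1 window at chr3:131156044-131156293 precedes an internal start and lies inside the gene's span of chr3:131110471-131224356, outside annotated exons. Capitals mark matches, on the minus strand, to CTTTGA, the core that TCF and LEF factors bind.
Rspo1: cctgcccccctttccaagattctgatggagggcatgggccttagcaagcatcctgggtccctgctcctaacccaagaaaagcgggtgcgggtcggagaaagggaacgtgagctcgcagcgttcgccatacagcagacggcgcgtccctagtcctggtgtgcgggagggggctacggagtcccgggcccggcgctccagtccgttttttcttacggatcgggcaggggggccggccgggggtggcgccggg
Axin2: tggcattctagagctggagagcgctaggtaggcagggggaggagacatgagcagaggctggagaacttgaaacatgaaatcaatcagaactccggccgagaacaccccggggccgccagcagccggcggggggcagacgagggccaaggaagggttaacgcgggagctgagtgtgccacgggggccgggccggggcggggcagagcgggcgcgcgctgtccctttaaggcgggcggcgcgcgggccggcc
Lef1, internal start: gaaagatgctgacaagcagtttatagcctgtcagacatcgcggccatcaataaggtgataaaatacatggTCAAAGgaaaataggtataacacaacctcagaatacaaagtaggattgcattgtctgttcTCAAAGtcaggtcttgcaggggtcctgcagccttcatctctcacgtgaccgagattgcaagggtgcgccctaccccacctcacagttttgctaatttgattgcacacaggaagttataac
CTTTGA, searched on both strands, occurred in 13.8% of 32851 such windows and CTTTGAT, which contains it, in 3.21%. The table holds 13 windows for 8 of the listed genes, 4 of them for Lef1. Of these 13 windows, 1 matched CTTTGA, that of the internal Lef1 start, at 180 and 120 bases before it. The other 3 Lef1 windows, those at the upstream start included, had no match, and no window matched CTTTGAT. A match is a description of the letters and not a site.

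Most of the 10 genes were higher in XX than in XY, and the gap widened after E11.5 for Rspo1, Wnt4, Lgr4, Lef1, Axin2 and Nkd1, while Ctnnb1 itself differed by at most 0.70 on the log2 scale. At an adjusted p under 0.05 in edgeR's quasi-likelihood test, 8 of 10 genes differed at E11.5, where 42% of all genes tested did. With only the 6 libraries of E11.5 fitted, far fewer of all genes were called, and Rnf43 was not. Both E11.5 shares thus depend on the estimate of spread shared by all libraries. With all libraries fitted, the count was also 8 of 10 at E12.5 (62.1% of all genes), at E13.5 (66.1%) and at E15.5 (69.4%). With so many genes differing, the count alone stands little above the background from E12.5 on, and the direction and size were less balanced. At E11.5, 6 of the 10 were higher in XX and 2 lower, against 21.4% and 20.6% of all genes. At E12.5 and at E13.5, 7 were higher and 1 lower, against 30.5% and 31.5% of all genes at E12.5 and 32.8% and 33.3% at E13.5. At E15.5, 8 were higher and 0 lower (34.9% and 34.4% of all genes). The median XX minus XY difference of the 10 was 1.16, 3.10, 2.72 and 3.20 on the log2 scale at the 4 stages in order. Over all genes tested it was 0.02, -0.01, 0.01 and 0.05. Wnt4, Rspo1, Lgr4, Axin2 and Lef1 were higher in XX at all 4 stages, as were 8.49% of all genes, and 0 of the 10 were higher in XY at all 4 (9.39% of all genes).

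**Figure D1:**
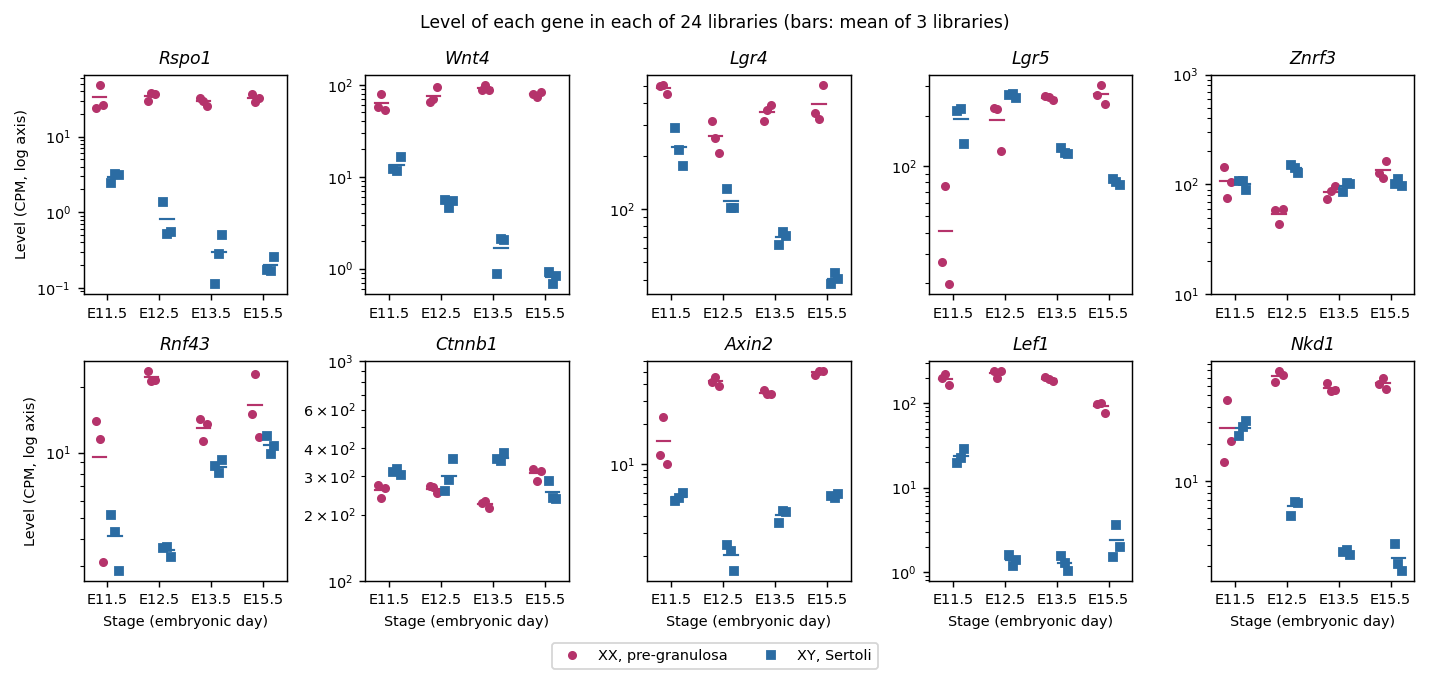
Levels of the 10 genes in CPM (log axes with their own range in each panel) by stage, with 1 point for each of 24 libraries and a bar at the mean of 3. Rspo1 stays level in XX, where the Wnt4 mean is lowest at E11.5 and highest at E13.5, and both fall by stage in XY. The XX points of Lgr5, Axin2 and Nkd1 are lowest and most spread at E11.5.

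The ligand gene Rspo1 held a steady level in pre-granulosa cells and fell toward the floor in Sertoli cells. In XX it was at 24, 49.0 and 26.1 CPM at E11.5 and between 25.8 and 38.1 CPM in the 9 later libraries. Without XX E11.5 replicate 2 the XX E11.5 mean went from 33.0 to 25.0 CPM. The XX step to E12.5 then went from 0.07 to 0.47 on the log2 scale, which was not called. In XY it was at 2.45, 3.17 and 3.13 CPM at E11.5 and at 1.35, 0.518 and 0.548 CPM at E12.5. By E15.5 the XY libraries held 0.174, 0.168 and 0.253 CPM, which are 3 or 4 reads each. Every XX library was above every XY library, and the lowest XX value was several times the highest XY value. The log2 difference was 3.5 (SE 0.28, adjusted p 3.44e-09) at E11.5 and was 7.36 (SE 0.41, adjusted p 1.78e-12) at E15.5, both in edgeR. The size at E15.5 rests on XY reads at or just above the floor of 3 counts and is uncertain: it lay between 4.61, by limma on log2(TPM + 1), and 7.54 over the alternatives, each of which called it. A change over stages in XX did not pass the test (adjusted p 0.818 in edgeR), whereas in XY Rspo1 fell by 1.86 on the log2 scale from E11.5 to E12.5 (SE 0.34, adjusted p 0.000103). Single libraries move the low XY means. Without XY E12.5 replicate 1 the E12.5 mean went from 0.807 to 0.533 CPM, and without XY E13.5 replicate 3 the E13.5 mean went from 0.297 to 0.195 CPM, and both XX minus XY differences then grew, to 6.06 and 7.11. The XY fall to E12.5 was 2.51 without XY E12.5 replicate 1. The next XY step, at -1.31 (SE 0.48), did not pass in edgeR (adjusted p 0.0644). It was -0.72 without XY E12.5 replicate 1 (adjusted p 0.391) and -1.92 without XY E13.5 replicate 3, where it passed (adjusted p 0.0403). It also passed in DESeq2 (adjusted p 0.0177) and by limma on log2(TPM + 0.1) (adjusted p 0.0235), though not on log2(TPM + 1), where it was -0.39 (adjusted p 0.185).

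Wnt4, whose product is the Wnt ligand of the early ovary, followed a similar course. Its XX mean was higher at E13.5 (91.8 CPM) than at E11.5 (64.0 CPM). In XX it ranged from 53.7 to 80.1 CPM at E11.5, from 65.5 to 93.6 CPM at E12.5, from 87.0 to 101 CPM at E13.5 and from 74.0 to 82.8 CPM at E15.5. In XY it was at 12.3, 11.6 and 16.3 CPM at E11.5, at 5.65, 4.62 and 5.44 CPM at E12.5, and at 0.911, 0.674 and 0.823 CPM at E15.5. The groups did not overlap at any stage, and the XY libraries of E11.5 were the only XY libraries above 10 CPM. The XX minus XY difference grew in stage order from 2.26 (SE 0.19) through 3.86 (SE 0.21) and 5.72 (SE 0.24) to 6.59 (SE 0.26) on the log2 scale, with adjusted p from 7.73e-09 to 1.07e-14 in edgeR. In XY, Wnt4 fell at each step, by 1.36, 1.59 and 1.09. The last of these steps had overlapping groups, and it was not called without XY E13.5 replicate 2 or 3 or without XY E15.5 replicate 2 (adjusted p 0.0652 to 0.0773), nor by limma on log2(TPM + 1). In XX, a change over stages was not called (adjusted p 0.0844), but it was without XX E11.5 replicate 2 (adjusted p 0.0100) or XX E12.5 replicate 3 (adjusted p 0.0442). The XX step to E12.5, at 0.25, was 0.45 without XX E11.5 replicate 2 and was then called (adjusted p 0.0459 in edgeR). XX libraries of E11.5 and E13.5 did not overlap. The 2 ligand genes had similar profiles over the 8 groups: their centred mean log2(CPM + 1) values differed by a root mean square of 0.42.

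**Figure D2:**
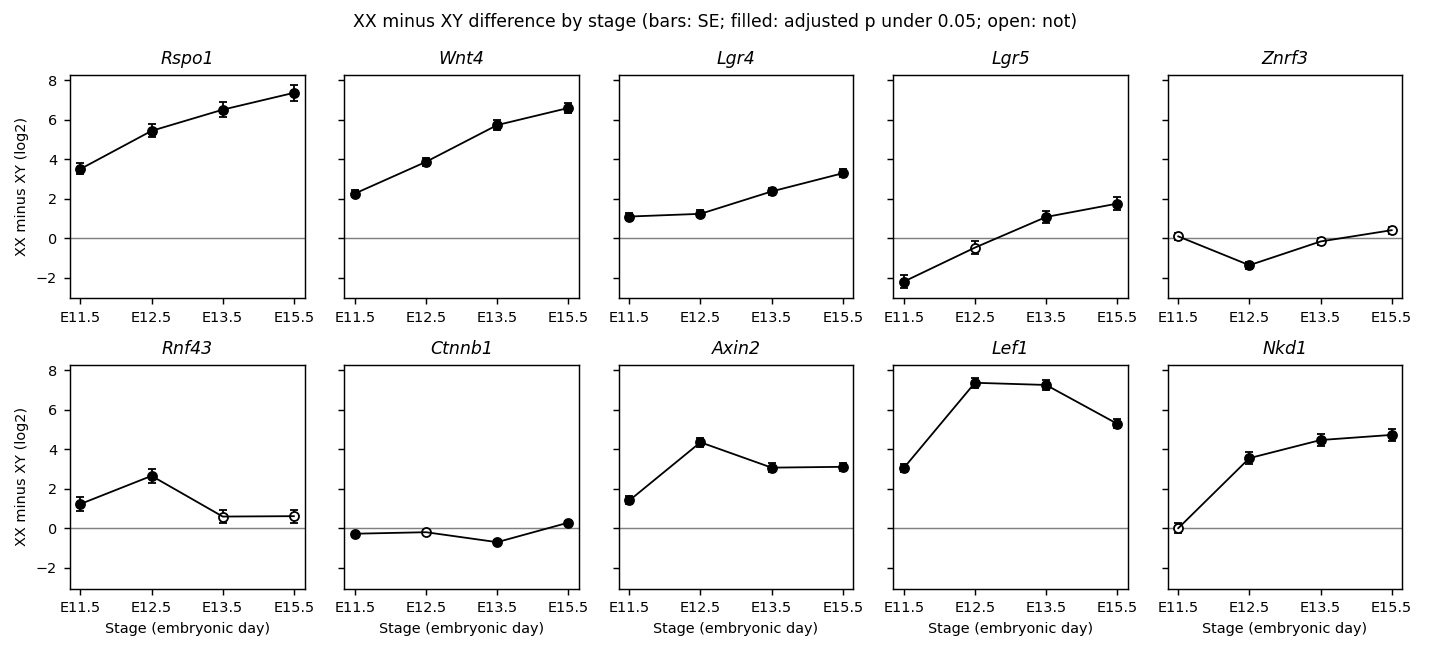
XX minus XY difference (log2, edgeR) of each gene by stage, with the SE as bars, filled points for an adjusted p under 0.05 and open points otherwise. Rspo1 and Wnt4 climb to 7.36 and 6.59 at E15.5, Lef1 peaks at 7.37 at E12.5, Lgr5 crosses from -2.21 to 1.75, Znrf3 dips to -1.37 at E12.5, and Ctnnb1 stays between -0.70 and 0.29.

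The receptor genes differed from each other. Lgr4 was higher in XX throughout, while Lgr5 was higher in XY first and in XX later. Lgr4 was at 496, 502 and 448 CPM in XX E11.5 and at 287, 216 and 175 CPM in XY E11.5. In XX it then lay between 209 and 507 CPM at all later stages, while in XY it fell to 130.1, 101 and 101 CPM at E12.5, to between 62.4 and 74.6 CPM at E13.5, and to 37.5, 43.3 and 40.4 CPM at E15.5. The XX and XY libraries of a stage did not overlap at any of the 4 stages. In stage order the XX minus XY difference was 1.09 (SE 0.18), 1.23 (SE 0.18), 2.36 (SE 0.19) and 3.28 (SE 0.19) on the log2 scale, with adjusted p of at most 4.99e-05 in edgeR. Lgr4 also fell within XX from E11.5 to E12.5, by 0.89 (SE 0.18, adjusted p 0.000739 in edgeR). Its fall in XY from E12.5 to E13.5, of 0.68, was not called without XY E12.5 replicate 1 (adjusted p 0.0705) or XY E13.5 replicate 1 (adjusted p 0.0534).

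Lgr5, which marks stem and progenitor cells in several epithelia, had its lowest level of all 8 groups in XX E11.5, with 26.8, 76.0 and 19.6 CPM. At E11.5 the XY libraries held 212, 220.2 and 136 CPM. At E12.5 the XX libraries held 223, 219 and 123 CPM and the XY libraries 264, 269.7 and 255 CPM. The sexes were thus far apart at E11.5 and close at E12.5, although still without overlap. By E15.5 the XX libraries were at 266, 306 and 236 CPM and the XY libraries at 83.6, 80.2 and 76.9 CPM, so the order had turned. The XX minus XY difference was -2.21 (SE 0.33, adjusted p 2.23e-05) at E11.5, -0.48 (SE 0.31, adjusted p 0.191) at E12.5, 1.07 (SE 0.32, adjusted p 0.00577) at E13.5 and 1.75 (SE 0.32, adjusted p 7.49e-05) at E15.5 in edgeR. The difference changed with stage (interaction adjusted p 1.55e-06). XX E11.5 replicate 2, the library with the highest pre-granulosa sum of its group, was also the highest for Lgr5; without it the XX mean went from 40.8 to 23.2 CPM, and the difference to -3.02. The E13.5 difference was not called by limma on log2(TPM + 1), at 0.73 with adjusted p 0.0534. Within XX, Lgr5 rose by 2.20 from E11.5 to E12.5 (SE 0.33, adjusted p 7.54e-05), or by 3.01 without XX E11.5 replicate 2. When only the 6 libraries of that step were fitted, the adjusted p was 0.0501. Within XY it fell by 1.11 from E12.5 to E13.5 (SE 0.32, adjusted p 0.0204), a call lost without XY E12.5 replicate 2 or without XY E13.5 replicate 2 or 3 (adjusted p 0.0598 to 0.0722).

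Levels of the 2 receptor genes can be compared in TPM (transcripts-per-million), which accounts for gene length. In XX E11.5, Lgr5 made up 6.03% to 20.1% of the summed Lgr4 and Lgr5 TPM. In XY E11.5 it made up 58.6% to 64.8%, so the libraries of the 2 cell types did not overlap. At the later XX stages the medians were 55.2%, 52.9% and 51.4%, near equal parts of both, and at the later XY stages they were 83.8%, 75.4% and 77.4%, mostly Lgr5. The sum itself had a median of 179 TPM in XX E11.5 and of 217 to 227 TPM in later XX groups. In XY it went from 206 TPM at E11.5 and 192 TPM at E12.5 to 87.3 TPM at E13.5 and 57.5 TPM at E15.5.

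**Figure D3:**
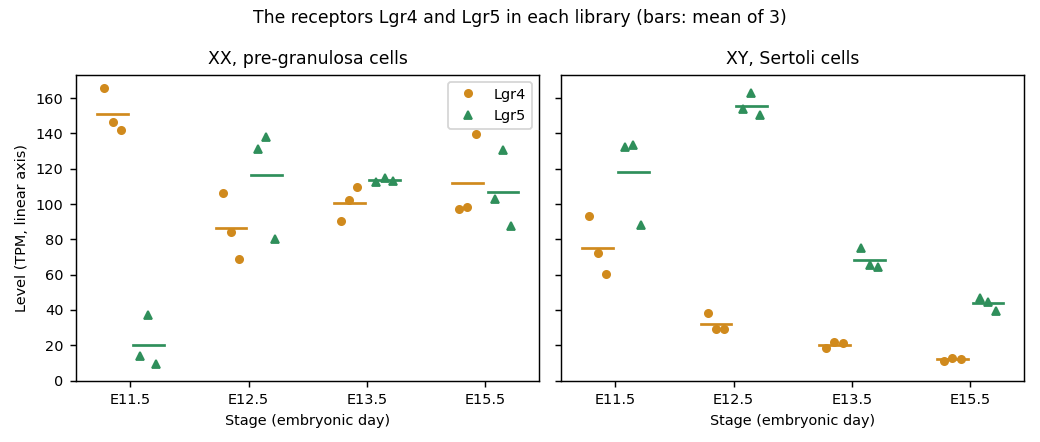
Lgr4 and Lgr5 levels in TPM (linear axis from 0) in each library by stage, XX at left and XY at right, with a bar at the mean of 3. In XX E11.5 the Lgr5 mean is 19.9 TPM against 151 TPM for Lgr4, and in XY Lgr5 lies above Lgr4 at each stage while both are lowest at E15.5.

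The ubiquitin ligase genes Znrf3 and Rnf43, themselves induced by Wnt signalling in several tissues, had their largest differences at E12.5, when Znrf3 was lower and Rnf43 higher in XX. Znrf3 was at 59.1, 43.4 and 60.1 CPM in XX E12.5 and at 151, 142 and 128 CPM in XY E12.5. The groups were well apart, and the difference was -1.37 on the log2 scale (SE 0.18, adjusted p 1.59e-06 in edgeR). At the other stages the Znrf3 difference was 0.09, -0.17 and 0.40, and none of these passed the test. That at E15.5 had an adjusted p of 0.0547, and of 0.039 with DESeq2 size factors. It also passed without XX E15.5 replicate 1 (0.0291) or 2 (0.0133), and it stayed uncalled in 11 of 17 alternatives. In XX, Znrf3 fell by 0.99 from E11.5 to E12.5 and then rose by 0.67 and 0.66, with adjusted p from 0.000391 to 0.011 in edgeR. The first step was not called with only its 6 libraries fitted (adjusted p 0.0517). Without XX E11.5 replicate 2 the XX E11.5 mean went from 107.8 to 124 CPM, which makes this first step larger. The second was lost without XX E12.5 replicate 2 or XX E13.5 replicate 3 (0.0568 and 0.0542), and the third without XX E13.5 replicate 1 or XX E15.5 replicate 3 (0.0684 and 0.106). The XY steps to E12.5, at 0.47, and to E13.5, at -0.54, passed at adjusted p 0.0342 and 0.046. Each was lost in several fits, the first without XY E11.5 replicate 3 or XY E12.5 replicate 1 or 2, and the second when any 1 of the 6 libraries it compares was left out.

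Rnf43 was at 23.9, 21.4 and 21.5 CPM in XX E12.5 and at 3.64, 3.67 and 3.29 CPM in XY E12.5, so that they differed by 2.65 on the log2 scale (SE 0.35, adjusted p 1.22e-06 in edgeR). At E11.5 the XX libraries held 14.0, 11.6 and 3.11 CPM and the XY libraries 5.14, 4.31 and 2.85 CPM. These overlapped, since XX replicate 3 lay within the XY range. The E11.5 difference of 1.23 (SE 0.33) passed with all 24 libraries fitted (adjusted p 0.0055) but not with the 6 libraries of that stage alone (adjusted p 0.16) or by limma on log2(TPM + 1) (adjusted p 0.0804). At E13.5 and E15.5 the differences of 0.59 and 0.61 did not pass (adjusted p 0.116 and 0.0991). In XX, Rnf43 rose by 1.21 from E11.5 to E12.5 (SE 0.32, adjusted p 0.00701), a call lost with only the 6 libraries of the step (adjusted p 0.15). In XY, it rose by 1.29 from E12.5 to E13.5 (SE 0.34, adjusted p 0.0132), with adjusted p 0.051 without XY E12.5 replicate 3. In TPM, Rnf43 was the smaller part of the pair in every library: its share of the Znrf3 and Rnf43 sum had a median of 43.1% in XX E12.5 against 4.42% in XY E12.5, and of 19.5% against 18.4% at E15.5.

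Ctnnb1, which encodes beta-catenin, an adhesion protein as well as the transducer of the signal, was high and nearly level. It lay between 213 and 380.2 CPM over all 24 libraries. At E13.5 the XX libraries held 225, 230.3 and 213 CPM and the XY libraries 358, 349.8 and 380.2 CPM, with no overlap. This difference of -0.70 (SE 0.10, adjusted p 3.87e-06 in edgeR) was its largest in that fit. Its size depends on the processing, and it lay between -0.73 and -0.24 over the alternatives. In TPM the means were 188 in XX and 223 in XY at E13.5, and 245 in XX and 175 in XY at E15.5. At E11.5 the difference was -0.28 (SE 0.10, adjusted p 0.0344), and at E15.5 it was 0.29 (SE 0.10, adjusted p 0.0171). The E11.5 call was lost with a replicate block within each stage (adjusted p 0.0514 in edgeR). The labels do not say that same-numbered libraries are paired. It was also lost without XX E11.5 replicate 2 or 3 or without XY E11.5 replicate 1 or 2 (0.0529 to 0.109). Over all the alternatives, the E11.5 call was kept in only 6 of 17. The E15.5 call was lost without XX E15.5 replicate 3 or XY E15.5 replicate 2 or 3 (0.0637 to 0.0775). The XX minus XY difference changed with stage (interaction adjusted p 5.65e-05). From E13.5 to E15.5, Ctnnb1 rose by 0.46 in XX and fell by 0.52 in XY (adjusted p 0.0022 and 0.000761). In GENCODE M21, 14.6% of its exon bases are shared with the antisense gene Ulk4, and whether counting used strand is not given in the sources used here.

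Axin2, which encodes a scaffold of the complex that destroys beta-catenin and is among the most widely used readouts of the pathway, was higher in XX at each stage. In XX it was at 11.7, 22.7 and 9.98 CPM at E11.5, at 42.0, 45.8 and 39.1 CPM at E12.5, at 36.3, 33.7 and 33.7 CPM at E13.5 and at 47.3, 50.1 and 50.7 CPM at E15.5. In XY it was at 5.27, 5.50 and 6.03 CPM at E11.5, at 2.43, 2.20 and 1.55 CPM at E12.5, at 3.59, 4.38 and 4.29 CPM at E13.5 and at 5.68, 5.56 and 5.89 CPM at E15.5. No XX library overlapped an XY library. The XY level dipped at E12.5 and was back at its E11.5 range by E15.5. The log2 difference was 1.41 (SE 0.20, adjusted p 1.15e-05) at E11.5, 4.35 (SE 0.23, adjusted p 1.16e-12) at E12.5, and 3.07 and 3.11 (SE 0.22 each) at E13.5 and E15.5 in edgeR. Without XX E11.5 replicate 2, the highest of its group, the E11.5 difference was 0.95 (adjusted p 5.80e-06). The XX E11.5 mean then went from 14.8 to 10.8 CPM, which makes the XX rise to E12.5 larger than that given next. From E11.5 to E12.5, Axin2 rose by 1.51 in XX (SE 0.20, adjusted p 1.91e-05) and fell by 1.44 in XY (SE 0.23, adjusted p 2.00e-05). In XY it then rose by 0.99 to E13.5 (SE 0.24, adjusted p 0.00596).

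Lef1, which encodes a DNA-binding partner of beta-catenin and is also a target, had the steepest XY fall of the 10 genes from E11.5 to E12.5. It was at 19.5, 22.2 and 28.7 CPM in XY E11.5 and at 1.59, 1.16 and 1.37 CPM in XY E12.5. The XX libraries held 199, 219.7 and 165 CPM at E11.5, between 185 and 243 CPM at E12.5 and E13.5, and 98.1, 102 and 76.4 CPM at E15.5. Thus XX Lef1 fell late, and XY Lef1 fell early. The XX minus XY difference was 3.05 (SE 0.19), 7.37 (SE 0.25), 7.26 (SE 0.25) and 5.29 (SE 0.23) on the log2 scale in stage order, with adjusted p of at most 8.85e-11 in edgeR. The XY fall from E11.5 to E12.5 was 4.09 (SE 0.24, adjusted p 1.32e-11), and the XX fall from E13.5 to E15.5 was 1.08 (SE 0.18, adjusted p 0.000186). A small XY rise from E13.5 to E15.5 (0.89, adjusted p 0.029) had overlapping groups. In the E15.5 step the value was 0.44 without XY E15.5 replicate 2 (adjusted p 0.307), the library with 3.65 CPM, and it was not called without XY E13.5 replicate 2 or 3 either (0.0719 and 0.131). Of the exon bases of Lef1, 13.7% are shared with the antisense gene Gm43352, as are 3.80% of those of Axin2 with Gm11670.

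Nkd1, which encodes a feedback inhibitor that binds Dishevelled, started level in the 2 cell types and then parted. At E11.5 it was at 14.2, 46.0 and 21.1 CPM in XX and at 23.1, 27.8 and 30.6 CPM in XY, and the groups overlapped (difference 0.00, SE 0.26, adjusted p 0.995 in edgeR). Without XX E11.5 replicate 2 the XX mean went from 27.1 to 17.6 CPM and the difference to -0.63 (adjusted p 0.00587), so 1 library decides this value. At E12.5 the XX libraries held 64.7, 79.4 and 73.6 CPM and the XY libraries 5.18, 6.73 and 6.62 CPM, without overlap. The difference was 3.55 (SE 0.29), 4.47 (SE 0.31) and 4.73 (SE 0.32) at the 3 later stages in order, with adjusted p of at most 1.44e-09. Nkd1 rose by 1.41 in XX (SE 0.26, adjusted p 0.000422) and fell by 2.13 in XY (SE 0.28, adjusted p 2.10e-06) from E11.5 to E12.5, then fell by 1.25 in XY to E13.5. The XX rise was 2.04 without XX E11.5 replicate 2 and was not called when only the 6 libraries of the step were fitted (adjusted p 0.0747).

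Counted by stage step, the 10 genes changed at different times in the 2 cell types. In XX, 6 of 10 changed from E11.5 to E12.5, with 4 higher and 2 lower. Of all genes, 34% changed in that step, 16.7% to higher and 17.3% to lower levels. With only the 6 libraries of that step fitted, 2 of the 10 genes were called, and far fewer of all genes, so both shares depend on the shared estimate of spread. Then 1 of 10, Znrf3, changed to E13.5, to a higher level, where 31.7% of all genes changed (14.2% higher and 17.4% lower). To E15.5, 2 rose and 1 fell (25.6%, with 12.8% each way). In XY, 7 changed from E11.5 to E12.5, with 1 higher and 6 lower, where 51.9% of all genes changed (27.1% higher and 24.8% lower). To E13.5, 7 changed, with 2 higher and 5 lower, where 16.6% of all genes changed (8.02% and 8.62%). To E15.5, 4 changed, with 1 higher and 3 lower, where 21.3% of all genes changed (9.79% to lower levels). That XY step to E13.5 was the one where the listed genes' share stood farthest above that of all genes, but the count of 7 was 5 or 6 when any 1 of its 6 libraries was left out. Znrf3 was lost each time, joined by Lgr4 without replicate 1 of either stage, by Lgr5 without XY E12.5 replicate 2 or XY E13.5 replicate 2 or 3, and by Rnf43 without XY E12.5 replicate 3. In that last fit Ctnnb1 came into the call, as did Rspo1 without XY E13.5 replicate 3. Over all stages, 8 of 10 changed in XX (74% of all genes) and 10 of 10 in XY (70.3%). The XY call of Znrf3 was lost without XY E11.5 replicate 3, XY E12.5 replicate 1 or 2, or XY E13.5 replicate 1 (adjusted p 0.0505 to 0.179). The XX minus XY difference changed with stage for 10 of 10, as for 70.1% of all genes.

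The spread within XX E11.5 was wide for these genes. Its coefficient of variation was the largest of the 8 groups for 5 of the 10, at 75.2% for Lgr5, 61.8% for Nkd1, 59.7% for Rnf43, 46.9% for Axin2 and 32.4% for Znrf3. Replicate 2 had the highest level of its group for 7 of the 10 genes. In that library the sum of 5 erythroid markers was 2276 CPM, against 9294 and 22621 CPM in replicates 1 and 3, and the interstitial sum was 249.8 CPM against 395 and 913 CPM. Lgr5, Nkd1 and Axin2 were highest in the library where both sums were lowest, Znrf3 was lowest there, and Rnf43 was lowest in replicate 3, where both sums were highest. The part of these cell types in the genes' levels was not tested.

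**Figure D4:**
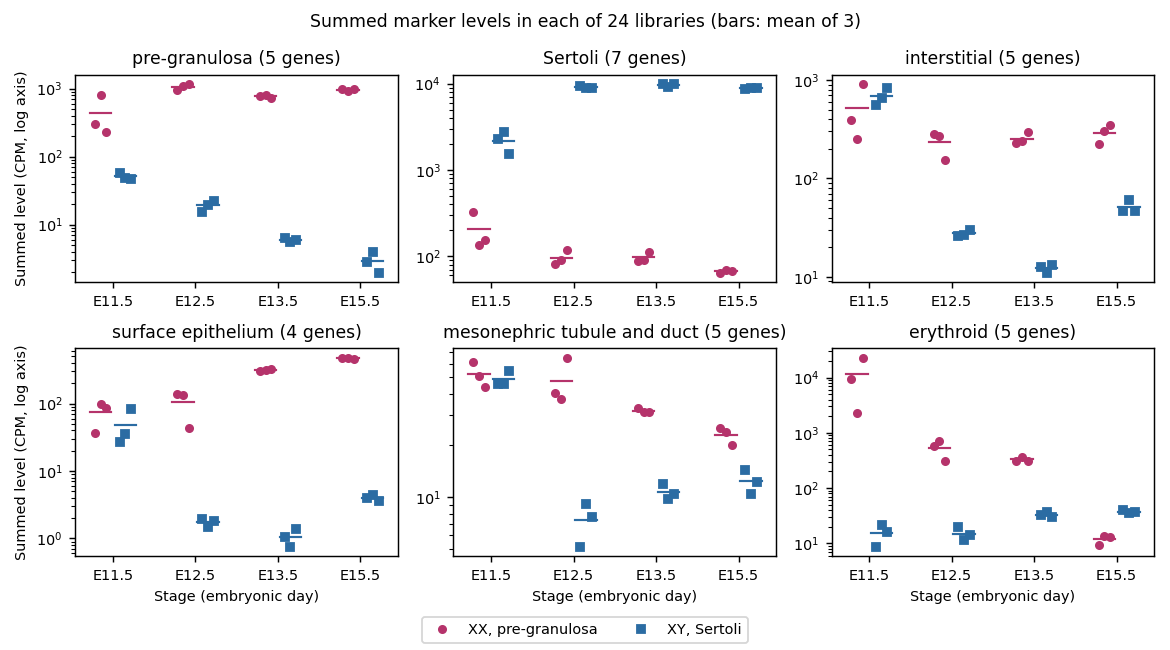
Summed CPM (log axes) of 6 marker lists in each library by stage, with a bar at the mean of 3. The XX E11.5 libraries are the most spread for the pre-granulosa and erythroid lists, and the interstitial, surface epithelium and mesonephric sums fall in XY after E11.5 but not in XX to that extent.

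Markers of some neighbouring cell types also moved with the XX minus XY differences, and others did not. The sum of 5 interstitial markers lay between 154 and 913 CPM in XX and between 557 and 837 CPM in XY E11.5, but between 26.2 and 30.0 CPM in XY E12.5, 11 and 13 CPM in XY E13.5 and 46.5 and 60.8 CPM in XY E15.5. The sum of 4 surface epithelium markers rose in XX from between 37.1 and 100.3 CPM at E11.5 to between 462 and 476 CPM at E15.5. In XY it lay between 27.0 and 83.6 CPM at E11.5 and at most at 4.43 CPM later, with Msln at 0 in all XY E12.5 libraries. The sum of 5 mesonephric markers reached 64.9 CPM in XX and 54.7 CPM in XY E11.5, but no more than 14.4 CPM later in XY, with Cdh16 at 0 in XY E12.5 and Lhx1 at 0 in XX E12.5. The sum of 5 steroidogenic markers was between 265 and 337 CPM in XY E11.5 and between 58.9 and 81.3 CPM in XY E12.5, and it was also lower in XX E12.5 (75.5 to 94.2 CPM) than in XX E11.5 (216 to 279 CPM). At E15.5 it was between 293 and 322 CPM in XX and between 60.1 and 102 CPM in XY. Erythroid markers summed to between 2276 and 22621 CPM in XX E11.5 against 8.75 to 21.6 CPM in XY E11.5, and immune markers to between 18.1 and 195 CPM in XX against at most 1.42 CPM in XY. Not all lists moved over the XY step from E11.5 to E12.5. The endothelial sum lay between 15.8 and 21.6 CPM, then between 14.7 and 16.4 CPM. The germ sum lay between 5.73 and 8.78 CPM, then between 5.04 and 6.17 CPM. Wnt4, Rspo1, Lgr4, Axin2, Lef1 and Nkd1 fell in XY over the same E11.5 to E12.5 step. The part of any of these cell types in that fall was not tested. In bulk libraries fewer cells of a type and less RNA per cell cannot be told apart.

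Other genes of the pathway were taken from 4 lists. Of the receptor complex list, 5 of 6 genes were tested, all but Rspo4. The R-spondin genes Rspo2 and Rspo3 were low everywhere: Rspo2 was between 1.17 and 2.34 CPM in XX from E12.5 on, and at most at 0.0868 CPM in XY of those stages. At E15.5 Rspo2 was at least 11.9-fold and Rspo3 at least 7.06-fold higher in XX, against a floor of 3 counts per library. Calls for Rspo3 were lost by limma on log2(TPM + 1), with adjusted p 0.059 at E15.5. The coreceptor gene Lrp5 was lower in XX by 2.35 (SE 0.24) at E13.5 and by 1.90 (SE 0.24) at E15.5 on the log2 scale. In this list 0 genes were higher and 1 lower in XX at E11.5. From E12.5 on 3 were higher at each stage, beside 1, 2 and 1 lower in stage order. The share called was 20% at E11.5 and 80%, 100% and 80% later, against 42%, 62.1%, 66.1% and 69.4% of all genes, and rests on 5 genes. Its median difference was 0.11, 2.48, 1.63 and 2.48, and 1.70 at E12.5 with genes near 0 set at their bound.

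The list of 14 genes that set beta-catenin turnover split in direction. At E11.5, 3 were higher and 2 lower in XX, and at E15.5, 7 were higher and 4 lower, with medians of 0.09 and 0.33. At E12.5 the counts were 4 and 5 and at E13.5 they were 5 and 6, with medians of 0.09 and 0.01. The share called, 35.7%, 64.3%, 78.6% and 78.6% in stage order, lay near that of all genes (42%, 62.1%, 66.1% and 69.4%). Gsk3b, a kinase that marks beta-catenin for destruction, was at 819 CPM on average in XX E15.5 and at 301 CPM in XY E15.5, and differed by 1.44 on the log2 scale (SE 0.14, adjusted p 6.23e-09 in edgeR). Dvl2, a Dishevelled protein that relays the Wnt signal, was at 24.7 CPM in XX E15.5, lower than the 106 CPM of XY E15.5, a difference of -2.11 (SE 0.17, adjusted p 4.01e-10). Both had the largest differences of their list at that stage.

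Of 13 nuclear partners of beta-catenin, 4 were higher and 1 lower in XX at E11.5, and 6 were higher at each later stage, beside 2 lower at E12.5 and 6 lower at both E13.5 and E15.5. The share called was 38.5% and 61.5% at E11.5 and E12.5, where 42% and 62.1% of all genes were called, and 92.3% at both later stages (66.1% and 69.4% of all genes). The list's median difference was 0.12, 0.41, 0.28 and 0.15. The 4 TCF and LEF genes did not move alike. Tcf7l2 was at 391 CPM in XX E15.5 against 105 CPM in XY E15.5 (difference 1.90, SE 0.15, adjusted p 2.74e-10), and Tcf7l1 was also higher in XX, by 1.70. Tcf7 was at most at 13 CPM in the XX E15.5 libraries and at least at 39.2 CPM in those of XY E15.5 (difference -1.82, SE 0.14, adjusted p 2.46e-10). So Lef1, Tcf7l1 and Tcf7l2 were higher in pre-granulosa cells and Tcf7 was higher in Sertoli cells at E15.5. The corepressor gene Tle3 was higher in XX by 2.46 (SE 0.20) at E15.5, while its E11.5 call (0.44, adjusted p 0.0473) was lost with a replicate block within stages (adjusted p 0.06).

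Of 11 further feedback and target genes, 1 was higher and 5 were lower in XX at E11.5, and 4 were higher and 5 lower at E12.5. At E13.5, 5 were higher and 3 lower, and at E15.5, 5 were higher and 4 lower. The share called was 54.5%, 81.8%, 72.7% and 81.8%, against 42%, 62.1%, 66.1% and 69.4% of all genes. The list's medians were -0.59, -0.02, 0.60 and 1.67 in stage order. Sp5, a direct target in many settings, was higher in XX at each stage, with means of 75.1 CPM in XX and 1.59 CPM in XY at E12.5 (difference 5.55, SE 0.54, adjusted p 2.46e-08 in edgeR). Tnfrsf19, a receptor gene of the TNF family, was not called at E11.5 (-0.16) and was at 342 CPM in XX E15.5 against 11.4 CPM in XY E15.5 (difference 4.91, SE 0.19). Nkd2, the paralog of Nkd1, went the other way: it was at 5.70 CPM in XX E11.5 against 111 CPM in XY E11.5 and at 49.1 CPM in XX E15.5 against 174 CPM in XY E15.5. Its difference was -4.25 (SE 0.29, adjusted p 6.08e-10) at E11.5 and -1.83 (SE 0.25, adjusted p 2.09e-06) at E15.5, beside 0.00 and 4.73 for Nkd1. The secreted Wnt inhibitor gene Wif1 was also higher in XY, with 6.90 CPM in XY E15.5 against 0.296 CPM in XX E15.5 (difference -4.33, SE 0.43). That XX mean is just above the highest floor of 0.26 CPM, so the size is uncertain.

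**Figure D5:**
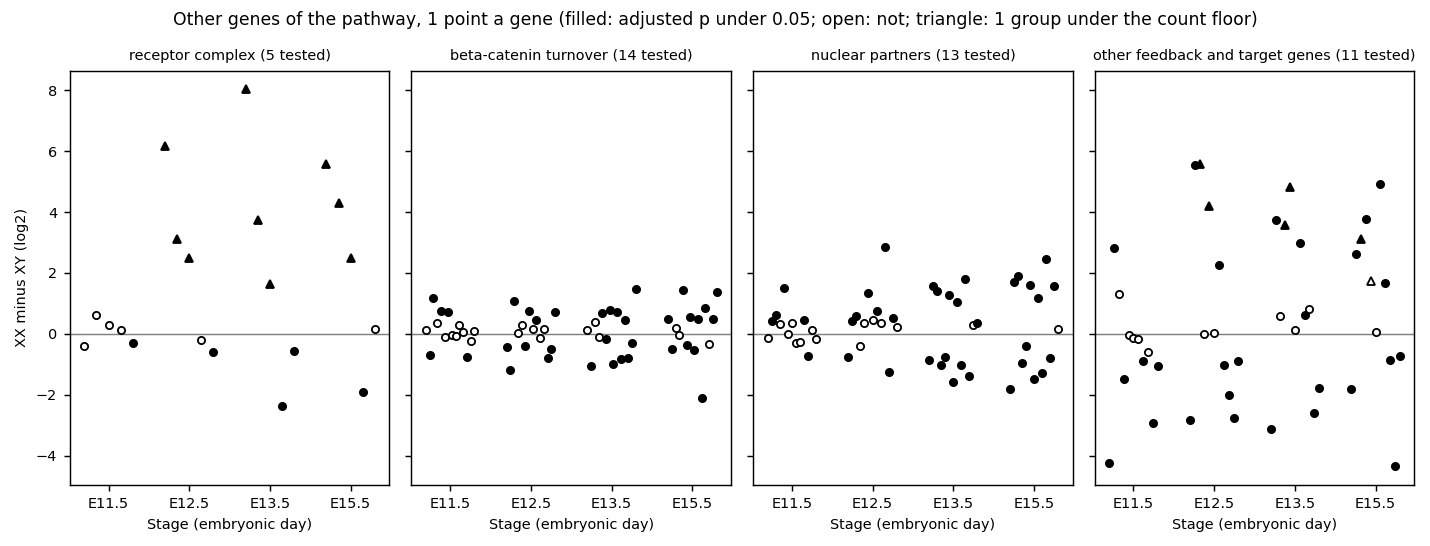
XX minus XY difference (log2, edgeR) of the other pathway genes by stage, 1 point for each gene of 4 lists, filled at an adjusted p under 0.05, and a triangle where 1 group's mean was under the highest floor of 0.26 CPM, so that the size is uncertain. Turnover genes stay within a narrow band, from Dvl2 at -2.11 upward. The feedback and target genes reach 5.55 (Sp5 at E12.5) and -4.33 (Wif1 at E15.5, where the XX mean is just above that floor).

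Profiles over the 8 group means of log2(CPM + 1), each centred on its own mean, were compared with those of 11166 genes that reached 10 CPM in at least 1 group. The genes nearest to Rspo1 were Stx11, Cd83 and Lypd6, at root mean square differences of 0.31, 0.37 and 0.38. Those nearest to Wnt4 were Gxylt2 (0.18), Hs3st3b1 (0.36) and Rspo1 itself (0.42). The genes nearest to Axin2 were Kcnn2 (0.19), Ankrd35 (0.27) and Lmo7 (0.35). For Lef1 they were Lhx9 (0.41), Xist (0.46), whose counts may include its antisense partner Tsix, and Pcdh18 (0.56). Profiles this near to that of Lef1 were also higher in XY E11.5 than in the later XY groups on average. For Xist, the source of that RNA in XY E11.5 was not tested. It may bear on the XY E11.5 levels of the 10 genes and on the XY falls to E12.5 given above, which was not tested either. The genes nearest to Lgr5 were Mme (0.51), Krt79 (0.54) and Fhod3 (0.58).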

How the data were processed

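RNA of sorted cells was turned into amplified cDNA libraries from polyadenylated RNA, per the labels' protocols, with no molecular identifiers described. The authors made and deposited an estimated count per gene, and they also deposited TPM values, which summed to between 938740 and 961696 per library. The genome build was mm10, per the submitters' processing notes; the aligner, the counting program and the use of strand are not given in the sources used here. Of the deposited counts 17.5% were not whole, and all were rounded. The main test was edgeR's robust quasi-likelihood test (edgeR 4.0.16, R 4.3.3) after filterByExpr, which kept 16190 genes, and TMM scaling. All 24 libraries entered, with a mean for each of 8 groups and 16 residual degrees of freedom. Benjamini-Hochberg adjustment ran over the whole table, and an adjusted p under 0.05 was a call. The fit was also run on simulated data with 1 spread for all genes and changes planted only between XX and XY at E11.5. It called 96 of 100 genes changed by 1 on the log2 scale with the right sign, with 11 false calls. The wider spread of the real XX E11.5 libraries was not simulated, so that case was not tested. Errors are SE for log2 differences and SD for levels, and floors cover counting error only.

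Groups came from the labels' descriptions. Counts of replicates differed by more than sampling noise in all 24 pairs within groups (chi-square per degree of freedom 3.98 to 122.1). Same-numbered XX and XY libraries of E11.5 deviated together (r 0.132 to 0.351 in 3 pairs), and no other comparison met that mark in every pair, so the block is an alternative. The others were DESeq2 size factors, no filter beyond 1 count, at least 10 counts in every library, DESeq2 1.42.0, limma 3.58.1 on log2(TPM + 1) and log2(TPM + 0.1) for genes at 1 TPM in 3 libraries and without that filter, only the libraries compared, an absolute log2 difference of at least 1, and leaving out each library.

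The 10 genes and all lists were chosen with earlier results of these data known. In each pathway list every gene may be named, and the 2 with the largest XX minus XY difference at E15.5 among those called are given with values. Like profiles are the 3 nearest genes of those reaching 10 CPM. Start regions of Lgr5 and Znrf3 were not analysed here.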

Additional observations from a re-analysis of the deposited data

Results flagged for a closer look

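Each of the 10 genes had an XX minus XY difference that changed with stage, by the test of the interaction of sex and stage in edgeR, as 70.1% of all genes tested did. The adjusted p was 2.11e-10 for Lef1, 9.15e-10 for Wnt4, 9.80e-09 for Nkd1, 4.89e-07 for Axin2, 4.98e-07 for Lgr4, 1.55e-06 for Lgr5, 4.33e-06 for Rspo1, 2.53e-05 for Znrf3, 5.65e-05 for Ctnnb1 and 0.00183 for Rnf43. From E11.5 to E15.5 the difference grew for Wnt4, Rspo1 and Lgr4 at each stage, turned from lower to higher in XX for Lgr5, and was widest at E12.5 for Lef1, Axin2, Rnf43 and Znrf3.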

How the results depend on the processing

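Under the alternatives 3440 values were recomputed, for single genes and for the number of genes called in each of the 4 pathway lists. Of these, 3191 stayed the same. For a gene this meant the same side of the threshold and the same direction, and for a list count a change within a set factor. Among gene values, 141 fell out of the call, 40 came into it and 39 changed sign. The other 29 were list counts that changed by more than that factor. All changes of sign were of values that had not passed the test. The number of the 10 genes called in XX from E12.5 to E13.5, 1 as reported, was 2 with DESeq2 size factors, with at least 10 counts in every library (which removes Rspo1) and in DESeq2, 0 by limma on log2(TPM + 0.1) and with a size limit (an absolute log2 difference of 1 or more), 6 with only the libraries compared, and 0 to 2 when 1 library was left out. In XY from E13.5 to E15.5, 4 as reported, it was 2 by limma on log2(TPM + 1) with or without a filter, 7 with only the libraries compared, 1 with the size limit, and 2 to 4 when 1 library was left out. With only the libraries compared, XX from E11.5 to E12.5 gave 2 in place of 6. With the size limit, XX from E13.5 to E15.5 gave 1, XY from E12.5 to E13.5 gave 4, and any change in XX gave 5. The cause of these moves was not tested, except that the size limit keeps fewer genes by construction.

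Signs changed as follows. The XX step of Ctnnb1 to E12.5 was -0.021 with DESeq2 size factors and in DESeq2, -0.025 with at least 10 counts, -0.20 by limma in each of 3 settings, -0.0096 with only the libraries compared, and -0.035 to 0.065 with 1 library left out. Its step to E13.5 was 0.021 by limma. Nkd1 at E11.5 was -0.019 without a filter, -0.017 with only the libraries compared, -0.17, -0.18 and -0.17 by limma, and -0.63 to 0.31 with 1 library left out. By limma, Znrf3 at E11.5 was -0.053 and -0.058, Lgr5 in XX from E13.5 to E15.5 was -0.10 and -0.11, Lef1 in XY from E12.5 to E13.5 was 0.039 and 0.077, and Nkd1 in XY from E13.5 to E15.5 was 0.032 and 0.039. With 1 library left out, these ranged from -0.18 to 0.29 for Znrf3, from -0.050 to 0.13 for Lgr5 and from -0.25 to 0.027 for Lef1. Rspo1 in its XX step to E12.5 then ranged from -0.11 to 0.47, and Lgr4 in its XX step to E15.5 from -0.11 to 0.25. The cause was not tested.

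With the replicate number as a block, Nkd1 at E11.5 was -0.054, and it was -0.16 with the block within stages, an alternative chosen after seeing the data. The block brought Axin2 in XX from E13.5 to E15.5 into the call (adjusted p 0.0482) and took Znrf3 in XY from E12.5 to E13.5 out of it (0.0523). The block within stages called Rnf43 at E13.5 (0.0392) and E15.5 (0.0454) and, besides Ctnnb1 at E11.5, took no XX minus XY call of the 10 genes away. The correlation of deviations passed 0.1 in all 3 same-numbered pairs of XX and XY libraries at E11.5 alone; at E12.5 it was 0.0319 to 0.14.

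Over all genes, limma on TPM moved the median XX minus XY difference at E12.5 by 0.20, and the share of called genes that were higher in XX from 50.9% to between 38.9% and 42.0% at E11.5 and from 49.2% to between 62.5% and 63.3% at E12.5. In XX it moved the share rising to E12.5 from 49.1% to between 60.9% and 66.9% and to E13.5 from 45.0% to between 18.5% and 18.9%, and in XY to E12.5 from 52.2% to between 33.9% and 35.3%. The XX share rising to E12.5 went the other way with only the libraries compared (27%) and with the size limit (26.5%), which also gave 28.8% in XX to E13.5 and 36.5% in XY to E12.5. With only the libraries compared, 2661 genes were called at E11.5 in place of 6803, 1024 in the XX step to E12.5 in place of 5505, and 4160 and 6207 in the XY steps to E13.5 and E15.5 in place of 2694 and 3448. With the size limit, 2784, 5434, 6071 and 6704 genes were called for XX minus XY at the 4 stages (10046, 10706 and 11230 without it at the last 3), 2107, 1404 and 1275 in the XX steps (5505, 5129 and 4144), 4149, 937 and 1396 in the XY steps (8395, 2694 and 3448), 4241 and 5377 for any change in XX and XY (11982 and 11377), and 7117 for the interaction (11347). The XX step to E15.5 gave 2743 genes without XX E13.5 replicate 1 and 2581 without XX E15.5 replicate 3, and the XY step to E13.5 gave 1553 without XY E12.5 replicate 2. When XY E13.5 replicate 2 or 3 was left out it gave 1663 or 1666. Depth limits Rspo1 in XY from E13.5 on, where libraries held 2 to 14 reads of it.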
